A study of Mus musculus with 8 samples.

Results

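Isolated CpGs are CpG dinucleotides that stand alone, with no other CpG listed in the data within 500 bp on either side. After the 2 strands of each CpG were merged, 155719 of the 17478687 CpGs on chromosomes 1 to 19 met this rule, or 0.891%. DNA methylation was read by whole-genome bisulfite sequencing, in which unmethylated cytosines appear as thymines, in muscle stem cells taken from limb muscle of male C57BL/6 mice and sorted while quiescent by the absence of CD45, CD31 and Sca1 and the presence of VCAM. The groups were 4 old mice, aged 22 months, and 4 young mice, aged 4 months, with 1 animal per library. The deposited table holds a methylation level (mu) and a dispersion (phi) for each age group and the authors' p-value and false discovery rate (FDR) for old against young, but nothing for single animals and no counts of reads. Levels therefore stand without a replicate error, the depth behind a single CpG is unknown, and the labels give 115000000 to 200000000 as the range of reads per library.

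In mammals most methylation sits on the cytosine of a CpG, where maintenance enzymes copy it from the parent strand to the new strand after replication. Methylated cytosines mutate readily to thymine, which has left most of the genome poor in CpGs, while CpG islands, many of them promoters, kept theirs and are mostly unmethylated. A lone CpG in CpG-poor sequence has no neighbours whose methylation state could be averaged with its own, and in many dividing cell types and tumours such CpGs lose methylation over repeated divisions more readily than CpGs in dense sequence.

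To show what such a site looks like, 7 promoter windows of 300 bases are printed from the RefSeq sequences of build GRCm38.p6. Each is written 5′ to 3′ on the gene's strand, from 250 bases before to 50 after a start annotated for the gene. A gene can have several such starts, and a window can lie inside its span. Capitals mark the isolated CpG. All windows but that of Olfr679 were chosen from 47 candidates with a single CpG, after their values were seen. They were the 2 most methylated, the 2 least methylated and the 2 with the widest gap between ages. The Olfr679 window was added because its CpG was called on both strands in the authors' deposited table. Jazf1, a zinc finger cofactor, has its window at chr6:52909571-52909870 on the minus strand, and its CpG was methylated at 93.7% in old and 95.2% in young cells. Fpr3, a formyl peptide receptor gene, has its window at chr17:17970208-17970507 on the plus strand, with 96.9% in old and 88.0% in young cells. Both were highly methylated at each age. Omd, which encodes the matrix protein osteomodulin, lies at chr13:49582212-49582511 on the plus strand and had 6.08% in old and 9.33% in young cells. Vmn1r221, a vomeronasal receptor gene, lies at chr13:23217123-23217422 on the plus strand and had 11.7% in old and 7.45% in young cells. A CpG standing alone in its window could thus be almost unmethylated. Vmn1r58, another vomeronasal receptor gene, lies at chr7:5413096-5413395 on the minus strand and had 70.1% in old and 21.9% in young cells. Olfr566, an odorant receptor gene, lies at chr7:102858716-102859015 on the minus strand and had 44.4% in old and 84.6% in young cells. Olfr679, also an odorant receptor gene, lies at chr7:105085468-105085767 on the plus strand and had 66.1% in old and 9.37% in young cells.
Jazf1: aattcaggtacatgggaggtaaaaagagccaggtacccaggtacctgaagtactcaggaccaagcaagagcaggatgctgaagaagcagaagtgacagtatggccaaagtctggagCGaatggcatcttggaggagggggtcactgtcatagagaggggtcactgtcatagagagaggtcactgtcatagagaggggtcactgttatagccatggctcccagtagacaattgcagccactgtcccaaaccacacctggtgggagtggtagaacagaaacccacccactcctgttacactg
Fpr3: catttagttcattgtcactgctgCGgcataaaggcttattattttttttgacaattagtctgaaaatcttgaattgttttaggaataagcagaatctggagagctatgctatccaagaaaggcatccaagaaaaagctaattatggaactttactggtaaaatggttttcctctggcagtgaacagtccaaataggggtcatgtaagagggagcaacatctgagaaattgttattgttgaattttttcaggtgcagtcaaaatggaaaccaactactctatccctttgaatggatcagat
Omd: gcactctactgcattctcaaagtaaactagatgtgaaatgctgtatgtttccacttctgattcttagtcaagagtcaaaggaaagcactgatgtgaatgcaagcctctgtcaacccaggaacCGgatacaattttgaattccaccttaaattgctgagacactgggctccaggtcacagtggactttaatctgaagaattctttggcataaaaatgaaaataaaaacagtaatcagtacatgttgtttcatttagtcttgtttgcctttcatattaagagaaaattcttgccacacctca
Vmn1r221: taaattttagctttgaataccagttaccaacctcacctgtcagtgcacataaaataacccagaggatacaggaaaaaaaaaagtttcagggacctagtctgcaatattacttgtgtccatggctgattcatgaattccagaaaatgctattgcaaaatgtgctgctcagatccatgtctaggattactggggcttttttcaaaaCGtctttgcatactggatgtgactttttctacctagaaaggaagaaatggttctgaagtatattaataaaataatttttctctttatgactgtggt
Vmn1r58: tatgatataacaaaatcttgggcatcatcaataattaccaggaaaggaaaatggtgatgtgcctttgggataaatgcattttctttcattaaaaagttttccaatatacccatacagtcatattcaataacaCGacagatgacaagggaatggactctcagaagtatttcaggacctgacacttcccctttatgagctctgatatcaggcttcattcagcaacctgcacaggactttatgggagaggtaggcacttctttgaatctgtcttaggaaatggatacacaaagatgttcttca
Olfr566: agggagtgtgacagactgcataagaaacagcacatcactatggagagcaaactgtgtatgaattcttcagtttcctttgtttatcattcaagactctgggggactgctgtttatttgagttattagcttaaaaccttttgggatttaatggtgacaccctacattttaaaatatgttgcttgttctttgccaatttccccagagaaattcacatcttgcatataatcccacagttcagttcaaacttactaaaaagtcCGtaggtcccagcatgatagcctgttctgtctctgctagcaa
Olfr679: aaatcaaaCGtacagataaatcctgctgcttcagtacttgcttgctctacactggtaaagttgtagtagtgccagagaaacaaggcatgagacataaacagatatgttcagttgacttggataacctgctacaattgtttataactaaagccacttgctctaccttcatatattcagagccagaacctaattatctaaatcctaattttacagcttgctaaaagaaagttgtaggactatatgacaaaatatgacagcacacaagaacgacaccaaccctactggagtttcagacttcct
The 6 windows before Olfr679 hold a single CpG, whereas the Olfr679 window holds a further cg near its 3′ end that the deposited table does not list.

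Promoter windows also gave a partial check of the rule against the reference. Of 31396 RefSeq windows, which hold a median of 7 CpGs each, 140 isolated CpGs lay in a window, and all 140 fell on a CG of the reference. In 103 of these windows it was the only CG, while in 37, or 26.4%, the reference held another CG that is not listed. The reference was searched only inside the window, which does not cover the 500 bp on either side that the rule spans. Unlisted CGs outside the window were thus not looked for, and 26.4% is a lower bound for these 140. Of all reference CGs in the windows, 98.5% were listed. Isolation is thus a property of the listed CpGs, and some members have an unlisted neighbour. The 140 CpGs averaged 52.9% in old and 51.7% in young cells, and ranged over 1.68% to 96.9% in old and 1.44% to 97.1% in young cells.

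Isolated CpGs were on average methylated at 62.3% in old and 61.7% in young cells, against 64.9% in old and 64.4% in young cells at the other 17322968 CpGs. Their levels were also spread in another way. Only 5.29% of isolated CpGs in old and 5.56% in young cells were methylated below 20%, against 11.6% of the other CpGs at each age. Levels from 20% to 80% made up 67.4% of isolated CpGs in old and 68.2% in young cells, against 51.2% of the others in old and 52.9% in young cells. Levels of 80% or more made up 27.3% of isolated CpGs in old and 26.2% in young cells, against 37.2% of the others in old and 35.6% in young cells. The median isolated CpG stood at 65.7% in old and 64.9% in young cells, against 74.3% in old and 73.6% in young cells for the other CpGs. On 18 of 19 chromosomes isolated CpGs were less methylated than the rest when both ages were averaged, and chromosome 11 was the exception, 2.65 points above its other CpGs.

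**Figure D1:**
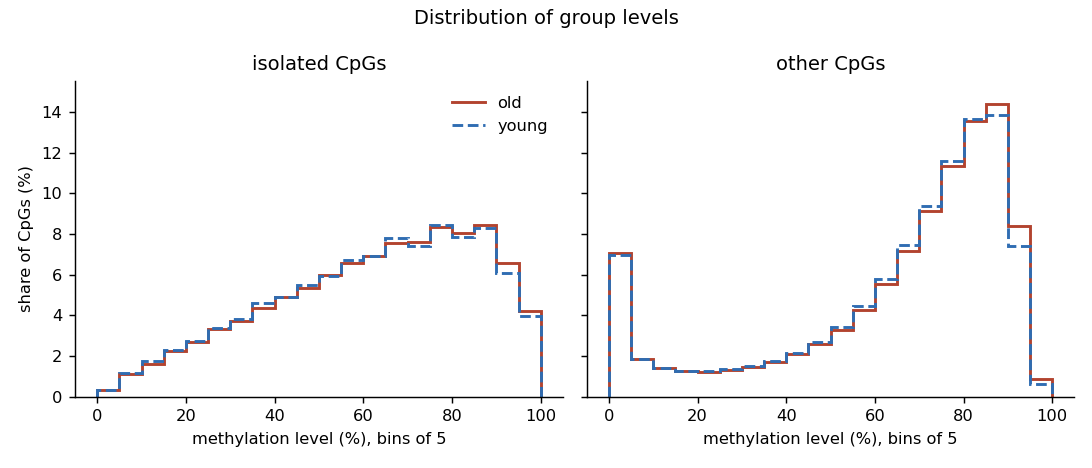
Share of CpGs (y axis, percent) in bins of 5 points of methylation level (x axis, percent) for old cells (solid line) and young cells (dashed line), with isolated CpGs on the left and the other CpGs on the right. Isolated CpGs lack the peak near 0 and the narrow peak above 80% that the other CpGs show, and 67.4% of them in old and 68.2% in young cells lie from 20% to 80%.

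Methylation was lower the longer the empty sequence around the CpG. Isolated CpGs had a median of 686 bp to the nearest listed CpG, 27635 of them over 1000 bp and 1985 over 2000 bp. Those over 500 and up to 600 bp from the next averaged 64.5% in old and 63.9% in young cells, those over 1000 and up to 2000 bp away 59.04% in old and 58.5% in young cells, and those over 2000 and up to 5000 bp away 55.4% in old and 55.1% in young cells. The 63 CpGs more than 5000 bp from any other averaged 54.8% in old and 50.9% in young cells, and the spread of their age differences was 14.9 points (SD over CpGs). The most isolated of all lies at chr14:26060284, 3.47 kb from Tmem254c, with 42141 bp to its nearest neighbour, and had 23.2% in old and 17.1% in young cells. The edge of the rule made no step, since 12318 CpGs just inside it, over 500 and up to 520 bp away, averaged 64.1% in old and 63.6% in young cells, and 13455 just outside it, over 480 and up to 500 bp away, averaged 63.6% in old and 63.03% in young cells.

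A sharp step lay instead at 250 bp. Among CpGs within 50 bp of the next, 63.5% had exactly the same pair of group levels as that neighbour, and among those over 200 and up to 250 bp away 24.4% did. Beyond 250 bp the share was 0%, and 0% of isolated CpGs shared their levels with a neighbour. Across the same boundary the SD of the age difference over CpGs was 12.03 points in the 25 bp past the boundary and 8.25 points in the 25 bp before it. Phi averaged 0.0411 in old and 0.0417 in young cells just past it, against 0.0485 in old and 0.0478 in young cells just before it. The level of an isolated CpG is thus its own in the deposited table, while most CpGs in dense sequence carry a level shared with others. Wherever isolated and other CpGs are compared, this difference in how their values arose moves with the comparison, and its part in the result was not tested.

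**Figure D2:**
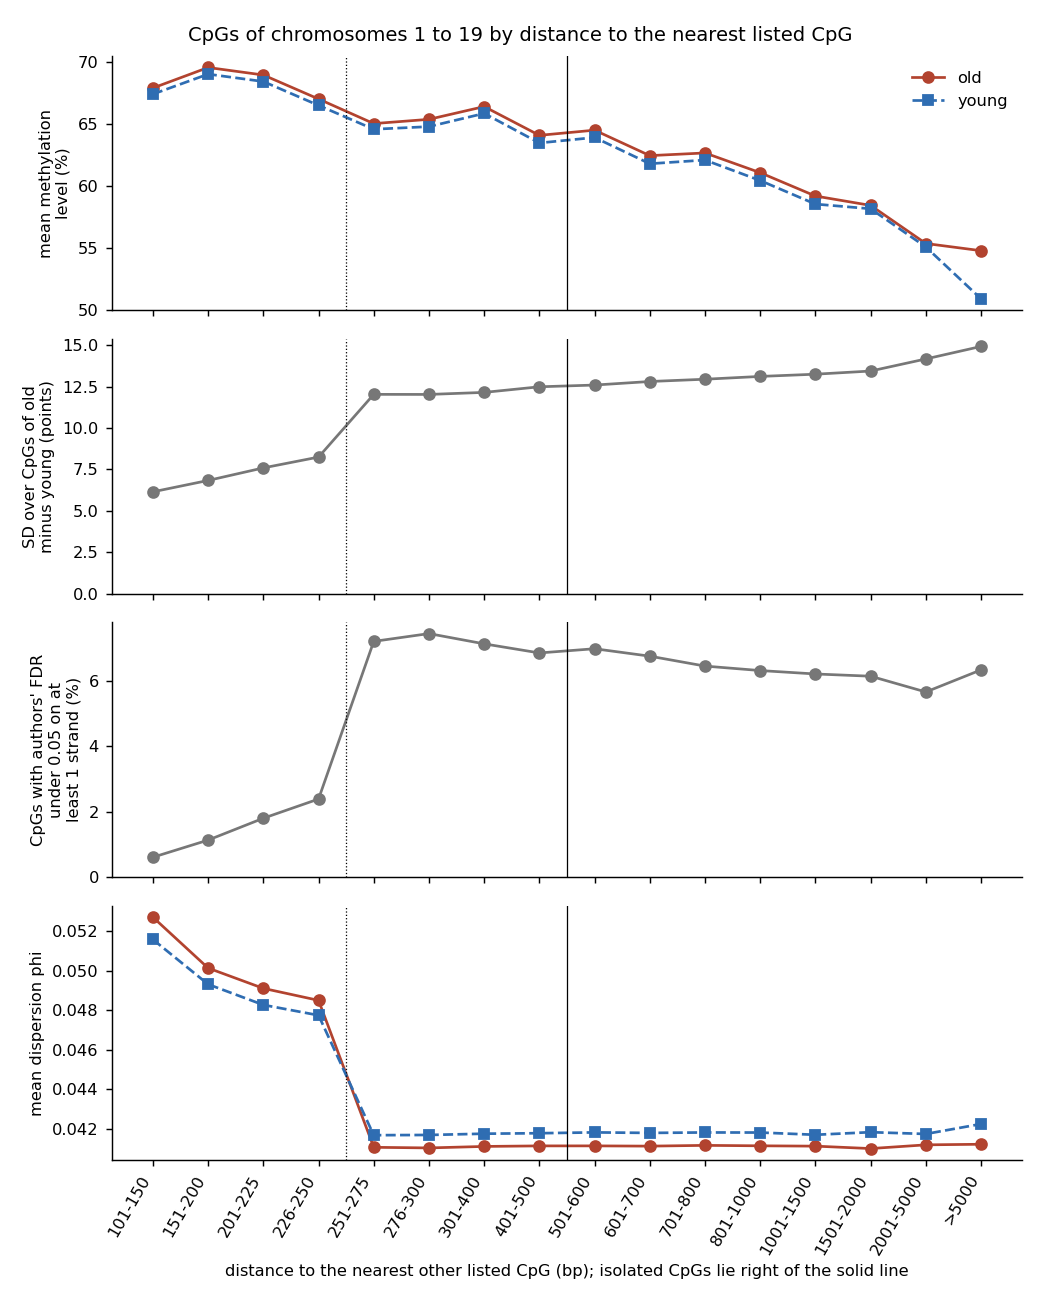
Mean methylation level (percent), SD of the age difference over CpGs (points), share called in the authors' deposited table (percent) and mean phi, each by class of distance to the nearest listed CpG (x axis, bp), with old cells as circles and young cells as squares, a dotted line at 250 bp and a solid line at 500 bp. At 250 bp the SD and the share called step up (7.22% called in the 25 bp past the line, 2.39% in the 25 bp before it) and phi steps down, while levels decline beyond 500 bp.

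With age, isolated CpGs differed little on average and widely one by one. The mean was 0.603 points higher in old than in young cells, and the SD of the age difference over CpGs was 12.9 points, against 0.474 points with an SD of 5.49 points at the other CpGs. Of the isolated CpGs, 52.3% were higher and 47.7% lower in old cells. A difference of at least 10 points was found at 38.9% of them, 20.8% higher and 18.1% lower in old cells, where the share over all CpGs was 7.49%. Among CpGs over 250 and up to 500 bp from the next, that share was 35.8% and the SD 12.2 points, close to the isolated ones. Levels of old and young cells correlated with r = 0.845 over isolated CpGs and r = 0.979 over the others. These correlations describe CpGs that share the same libraries. The mean age difference depended on where a CpG stood between empty and full methylation. It was 0.225 points for isolated CpGs below 20% (both ages averaged), 0.642 points from 20% to 40%, 0.673 points from 40% to 60%, 0.748 points from 60% to 80% and 0.405 points from 80% up. At the other CpGs the class below 20% stood apart, with -0.123 points, and the 4 classes above it lay above 0.

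The age difference was above 0 on all 19 chromosomes. It was widest on chromosome 11, with 64.3% in old and 63.3% in young cells, a difference of 0.960 points, followed by chromosome 5 with 60.6% in old and 59.8% in young cells and chromosome 3 with 62.9% in old and 62.1% in young cells. The smallest was that of chromosome 17, with 59.5% in old and 59.2% in young cells, 0.284 points apart, then on chromosome 18 at 0.332 points and chromosome 19 at 0.361 points. The SD over chromosomes was 0.180 points, which describes the chromosomes and is no replicate error, since all share the same 8 animals. The SEM over the CpGs of a chromosome had a median of 0.146 points, near that SD, so the order of the chromosomes is uncertain. The other CpGs were closer together, with 0.411 points for chromosome 11 as the lowest and 0.539 points for chromosome 14 as the highest, so that chromosome 11 held the widest age difference of isolated CpGs and the smallest of the rest. On 13 of 19 chromosomes the isolated CpGs had the larger age difference. Their level itself was lowest on chromosome 7, at 57.04% in old and 56.7% in young cells, and highest on chromosome 16, at 65.3% in old and 64.6% in young cells. Isolated CpGs were most frequent on chromosome 3, at 12.6 per 1000 CpGs, and least on chromosome 11, at 5.29 per 1000.

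**Figure D3:**
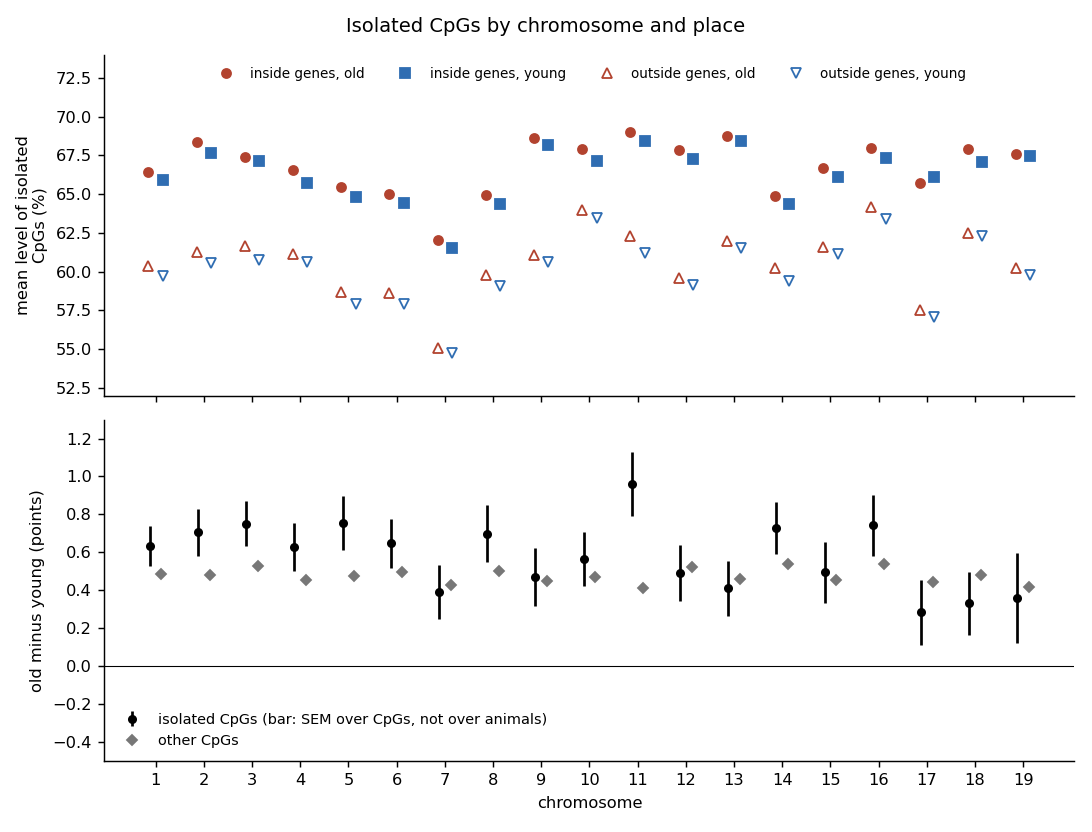
Above, the mean level (percent) of isolated CpGs on each chromosome (x axis), inside genes (filled) and outside genes (open), in old cells (red) and young cells (blue). Below, old minus young (points) for isolated CpGs (circles, bars are the SEM over CpGs and not over animals) and for the other CpGs (diamonds): isolated CpGs are above 0 on all 19 chromosomes, with 0.960 points on chromosome 11 and 0.284 points on chromosome 17 as extremes.

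Only 27.9% of isolated CpGs lay inside the span of a protein-coding gene, against 51.0% of the other CpGs. Inside genes they averaged 66.7% in old and 66.1% in young cells, and outside genes 60.6% in old and 59.9% in young cells. The inside level was the higher on all 19 chromosomes, by 3.81 points (chromosome 10) to 8.60 points (chromosome 17) with both ages averaged. The means of the other CpGs ran the opposite way. They were 63.6% in old and 63.2% in young cells inside genes and 66.2% in old and 65.7% in young cells outside. Their medians did not, at 75.5% in old and 74.8% in young cells inside genes and 73.2% in old and 72.6% in young cells outside. The age difference showed no common direction by place. It was 0.545 points inside and 0.626 points outside, and the inside value was above the outside value on 7 chromosomes and below it on 12.

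The gap between inside and outside genes depended on how rich in CpGs the wider surroundings were. Isolated CpGs were sorted into 5 classes of about equal size by the number of CpGs listed within 50000 bp on each side. In the poorest class, with at most 297 CpGs around, levels inside genes were 57.8% in old and 57.1% in young cells, and outside genes 57.3% in old and 56.5% in young cells. In the richest class, with at least 602, they were 73.3% in old and 73.0% in young cells inside genes, and 66.3% in old and 65.9% in young cells outside. Over all isolated CpGs the level was higher from class to class in both ages, with 57.4%, 59.1%, 61.1%, 64.5% and 69.4% in old cells and 56.6%, 58.5%, 60.3%, 63.9% and 69.0% in young cells. The age difference was 0.771 points in the poorest class and 0.376 points in the richest. Deep in gene deserts, over 500000 bp from any protein-coding gene, lay 17.0% of isolated CpGs and 3.72% of the others. There isolated CpGs averaged 58.7% in old and 57.9% in young cells, and the other CpGs 70.05% in old and 69.3% in young cells.

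Each isolated CpG was also set beside the other CpGs within 10000 bp of it. The isolated CpG minus those neighbours was -5.88 points in old and -5.85 points in young cells, on average over the 155648 that had at least 5 neighbours. Inside genes the gap was -2.42 points in old and -2.35 points in young cells, and outside genes -7.22 points in old and -7.20 points in young cells. Below their neighbours' mean lay 48.6% in old and 48.4% in young cells inside genes. Outside genes 57.4% in old and 57.8% in young cells did. Levels of isolated CpGs followed those of the neighbours only weakly (r = 0.137 across CpGs in old cells), and their age differences did not track those of the neighbours (r = 0.00677). Pairs of isolated CpGs over 500 and up to 750 bp apart were also compared. Over 10308 such pairs the levels had r = 0.161 in old and r = 0.149 in young cells, and the age differences pointed the same way in 50% of pairs.

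Of 20665 protein-coding genes, 6783, or 32.8%, held at least 1 isolated CpG, and these were long, with a median span of 52.5 kb against 10.3 kb for genes without any. Genes over 1000 kb held 9.58 isolated CpGs per 100 kb, at 61.3% in old and 60.5% in young cells, and genes of up to 100 kb held 2.99 per 100 kb, at 69.0% in old and 68.7% in young cells. Many of the genes with the most isolated CpGs are known for work in neurons. Cntnap2, a neurexin-like adhesion protein of axons, held 333 at 57.9% in old and 58.0% in young cells. Lrp1b, a lipoprotein receptor relative, held 276 at 57.5% in old and 57.3% in young cells. Ptprd, a receptor tyrosine phosphatase that organises synapses, held 266 at 70.6% in old and 69.4% in young cells. Levels therefore differed by over 10 points between genes of like size, while the ages were close within each gene. The adhesion gene Lsamp held 253, the potassium channel partner Dpp10 237, the synaptic scaffold gene Dlg2 229, the ADP-ribose hydrolase gene Macrod2 217, Naaladl2 179, Csmd3 173, the neurexin gene Nrxn3 171, and the sodium pump partner Nkain2 168. Within single genes the CpGs covered almost the whole scale, as in Cntnap2, from 5.27% to 96.8% in old and from 3.37% to 98.6% in young cells.

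Among the 136 genes with at least 50 isolated CpGs, the mean was higher in old cells in 96 and lower in 40. In 125 of the 136 the age difference was within 2 SEM over the gene's CpGs. That SEM covers the spread among CpGs and not among animals. The synaptic adhesion gene Lrfn5 had the widest difference upward, with 63.7% in old and 58.4% in young cells over 56 CpGs, 5.27 ± 1.69 points (SEM over CpGs). Luzp2 followed with 54.8% in old and 50.2% in young cells, then the imprinted gene Snrpn with 52.4% in old and 48.4% in young cells, the adhesion gene Cadm2 with 71.03% in old and 67.1% in young cells, and Astn2, which acts in neuronal migration, with 61.2% in old and 57.3% in young cells. Downward, the glycosyltransferase gene Mgat4c had 53.7% in old and 57.2% in young cells over 83 CpGs, -3.49 ± 1.48 points. Etl4 had 64.1% in old and 67.0% in young cells, the dynein gene Dnah7c 60.8% in old and 63.6% in young cells, the synaptic scaffold gene Ppfia2 55.6% in old and 58.1% in young cells, and the potassium channel gene Kcnh7 60.2% in old and 62.5% in young cells.

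Genes of the muscle stem cell held few isolated CpGs, and they are short, with a median span of 20.1 kb. In a list of 27 such genes, 7 held at least 1, where 32.8% of all protein-coding genes did. They held 19 in all, which averaged 71.4% in old and 70.0% in young cells. None lay in Pax7, the defining transcription factor of these cells, nor in Myod1, Myf5 or Vcam1. Rbpj, the DNA-binding partner of Notch, held 7 at 80.8% in old and 78.9% in young cells. Calcr, a receptor that keeps the cells quiescent, held 2 at 23.9% in old and 22.9% in young cells, the lowest of the list. Met, the receptor for hepatocyte growth factor, held 2 at 92.0% in old and 79.5% in young cells. Among 27 genes of the muscle fibre, 12 held 403 isolated CpGs, at 62.7% in old and 62.5% in young cells. Most belonged to 2 sarcoglycans of the membrane complex around dystrophin, Sgcz with 154 at 56.5% in old and 56.1% in young cells and Sgcd with 103 at 57.1% in old and 57.5% in young cells. The calcium channel gene Ryr2 had 24 at 64.6% in old and 67.7% in young cells, and the transcription factor gene Mef2a had 14 at 81.5% in old and 81.3% in young cells. All 40 genes of a neuronal adhesion and synapse list held isolated CpGs, 5425 in all at 59.03% in old and 58.4% in young cells, or 11.1 per 100 kb. That list was chosen with earlier results known and is made of very long genes, with a median span of 1135 kb, and all genes over 1000 kb held 9.58 per 100 kb. The muscle fibre list held 6.86 and the stem cell list 1.503 per 100 kb, where all genes of up to 100 kb held 2.99. The mean was higher in old cells in 30 of the 40 neuronal genes, near the 96 of 136 among all genes with at least 50 isolated CpGs.

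**Figure D4:**
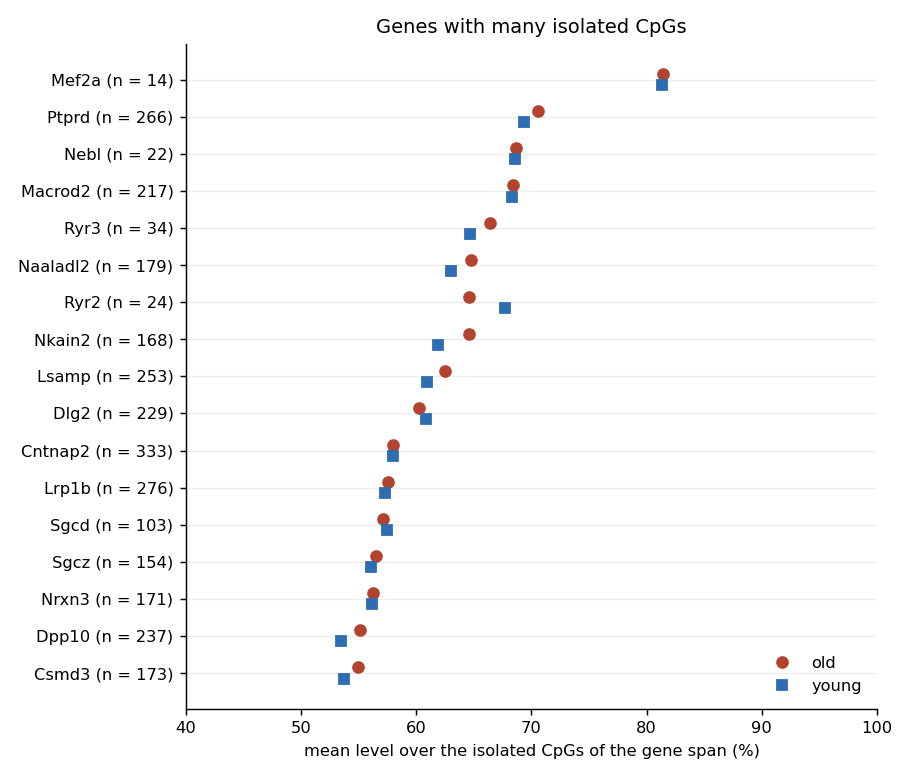
Mean methylation level (x axis, percent) over the isolated CpGs of each gene span in old cells (circles) and young cells (squares), for genes with the most isolated CpGs and muscle fibre genes with at least 10, with n as the number of isolated CpGs. Genes spread over 54.9% to 81.5% in old and 53.5% to 81.3% in young cells, and within each gene the ages lie close together.

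The authors' deposited table called 10316 isolated CpGs at an FDR below 0.05 on at least 1 strand, or 6.62%, where 0.421% of all CpGs were called. Of these, 5688 were higher in old cells, where the share of all CpGs was 0.235%, and 4628 were lower, where it was 0.187%. CpGs 250 to 500 bp from the next, which also share no level with a neighbour, were called at 7.15% in the authors' deposited table. The median called CpG among the higher ones had 75.3% in old and 51.6% in young cells, and among the lower ones 51.8% in old and 75.5% in young cells. Place made little difference, with 6.56% called inside and 6.65% outside genes. In the lists of genes, 365 isolated CpGs of the neuronal list were called, or 6.73%, 38 of the muscle fibre list, or 9.43%, and 2 of the 19 of the stem cell list, or 10.5%, in the authors' deposited table.

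These calls rested almost wholly on 1 strand. Both strands of every isolated CpG listed on both carried the same levels, since 100% were equal, yet only 0.0712% had the same p-value in the authors' deposited table. Of 10309 called CpGs with both strands listed, 75 were called on both, or 0.728% of them. On the remaining 10234 the other strand's p-value had a median of 0.131, and 24.2% of these were below 0.05, in the authors' deposited table. The called strand carried the most common phi of an age group (0.0434 in old or 0.0438 in young cells) in 92.9% of these CpGs and the other strand in 1.09%. Where neither of 2 listed strands was called, 33.0% of the strands carried it. Without the CpGs that carried such a phi, 785 calls were left in the authors' deposited table, or 0.837% of the 93839 that remained. The share over all CpGs without such a phi was not computed. Of the 65805 isolated CpGs listed on 1 strand, which carried such a phi in 1.83% of cases against 67.5% for the others, the authors' deposited table called 7, or 0.0106%. The share called among non-isolated CpGs listed on 1 strand was not computed. The meaning of the repeated phi values is not stated in the labels or the header, and their part in the calls was not tested.

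Calls on both strands were few and concerned very wide differences. The 75 CpGs were 0.0834% of the 89914 listed on both strands, where the share of all such CpGs was 0.00672%. Among CpGs over 250 and up to 500 bp from the next, the authors' deposited table called 192 of 229218 on both, or 0.0838%. The share was thus not particular to isolated CpGs. The 47 higher in old cells, where the share of all was 0.00391%, averaged 80.4% in old and 31.9% in young cells. The 28 lower in old cells, where it was 0.00281%, averaged 34.1% in old and 84.1% in young cells. Differences this wide were absent from the mean over the surroundings, while single nearest neighbours were not looked at. The other CpGs within 10000 bp averaged 67.2% in old and 66.4% in young cells around the 47, and 67.5% in old and 67.1% in young cells around the 28. The neighbours' mean went the same way as the CpG at 32 of the 47 and 7 of the 28. Protein-coding spans held 8 of the 47 and 6 of the 28, where they held 29.5% of the isolated CpGs listed on both strands. Of the 75, 53 carried neither common phi value, 36 of them higher and 17 lower in old cells. Among the other CpGs called on both strands, 203 of 903 carried neither.

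Among the CpGs higher in old cells, the site at chr11:14163245, 436 kb from the nuclear pore relative Pom121l12, had 96.05% in old and 35.2% in young cells, where the authors' deposited table gives 3.315e-05 as the larger FDR of the 2 strands. A site at chr3:64148734, inside the overlapping spans of the vomeronasal receptor genes Vmn2r1 and Vmn2r2, had 83.1% in old and 22.9% in young cells, where the authors' deposited table gives a larger FDR of 0.000495. A site at chr2:21609383, inside the orphan receptor gene Gpr158, had 77.8% in old and 17.97% in young cells, where the authors' deposited table gives a larger FDR of 0.0059. These 3 carried neither common phi value. The widest gap, at chr18:19192154, was 769 kb from the desmosome gene Dsc3 and had 94.7% in old and 32.9% in young cells, but it carried a common phi value. So did the site at chr3:82570792, 21.8 kb from the neuropeptide Y receptor gene Npy2r, with 68.3% in old and 8.5% in young cells, and the Olfr679 site at chr7:105085476 printed above. The other members of the 8 widest lay near Gm6098 and Gm29258, with 95.3% in old and 38.6% in young cells near the first and 90.9% in old and 34.7% in young cells near the second. A further site without a common phi value lay 1498 kb from Tenm2, its nearest protein-coding gene, with 86.9% in old and 32.3% in young cells.

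Among the CpGs lower in old cells, the widest gap lay at chr2:99655482, 1905 kb from Iftap, with 19.6% in old and 86.3% in young cells and a common phi value. Further sites lay at chr8:96735729, 847 kb from Got2, and at chr12:59749958, 528 kb from Fbxo33. Others lay at chr1:114239710, 1445 kb from Cntnap5a, and at chr3:117178711, 140 kb from Plppr4. All of these also carried a common phi value, and were at 17.4% to 33.0% in old and 77.3% to 94.8% in young cells. Without a common phi value, the site at chr5:71293195, 150 kb from the cytochrome oxidase gene Cox7b2, had 34.6% in old and 93.8% in young cells, where the authors' deposited table gives a larger FDR of 2.064e-05. The site at chr11:24963108, 790 kb from the zinc finger repressor gene Bcl11a, had 20.2% in old and 77.6% in young cells. The site at chr4:58689590, 95.2 kb from the odorant receptor gene Olfr267, had 21.2% in old and 77.6% in young cells. The site at chr19:38226930, 2.30 kb from Fra10ac1, had 23.4% in old and 78.4% in young cells, and the site at chr4:20602440, inside Nkain3, had 35.1% in old and 88.8% in young cells.

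**Figure D5:**
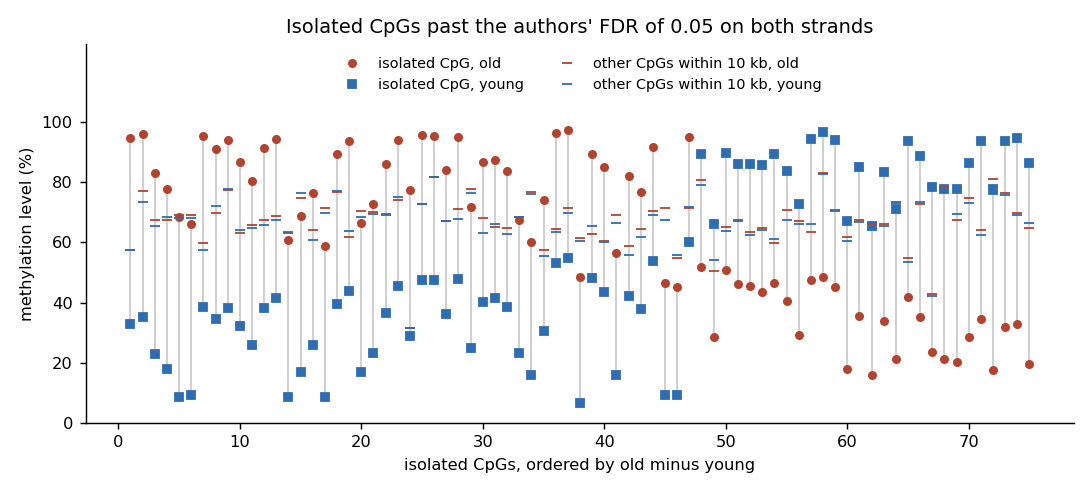
Methylation level (y axis, percent) of the 75 isolated CpGs called on both strands in the authors' deposited table, in order of old minus young (x axis), in old cells (circles) and young cells (squares), with dashes for the mean of the other CpGs within 10 kb. Each CpG differs by at least 35.1 points between ages, while the dashes of its surroundings differ by at most 5.25 points.

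Phi, the dispersion in the deposited table, was slightly lower in old cells at isolated CpGs. It averaged 0.0411 in old and 0.0418 in young cells, a difference of -0.000662, and the difference was below 0 on all 19 chromosomes, with -0.000794 for chromosome 18 and -0.000588 for chromosome 2 as extremes. At the other CpGs it averaged 0.0496 in old and 0.0491 in young cells, a difference of 0.000541, and the difference was above 0 on all 19. Medians did not differ in direction, with 0.0415 in old and 0.0421 in young cells at isolated CpGs and 0.04385 in old and 0.04415 in young cells at the others. The other CpGs had a tail of large values that isolated CpGs lacked, with phi over 0.1 at 2.95% in old and 2.44% in young cells, against 0.0135% of isolated CpGs in old and 0.0212% in young cells. Phi was slightly higher inside genes, at 0.0413 in old and 0.0420 in young cells, than outside, at 0.0411 in old and 0.0417 in young cells. Chromosomes 5, 13 and 18 went the other way in old cells, and chromosome 17 in young cells. The age difference of phi was close in both places, at -0.000668 inside and -0.000660 outside. CpGs over 250 and up to 500 bp from the next had a mean phi difference of -0.000639, close to that of the isolated ones.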

How the data were processed

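Muscle stem cells came from 4 old and 4 young mice, with the age group taken from each sample's label. Per the labels' protocols, libraries took 150 ng of DNA, 14 PCR cycles and paired-end reads of 101 bp, and the submitters' processing notes name Trim Galore, Bismark and edgeR with builds mm10 and GRCm38, without versions or roles. The authors deposited 1 table of 33108039 rows. Its level per age group (mu) is, per the file headers, a fraction from 0 to 1, printed here as percent. Phi is named per the file headers only, and no source used here defines it. The deposited p-value and FDR come from the authors. No source used here names the tool behind them. Rows on chromosomes 1 to 19 were merged over strands and averaged with equal weight. Positions were counted from 0 in the table, as checked against RefSeq promoter sequences, and are printed from 1. Gene spans came from RefSeq GRCm38.p6. No test over animals was possible, so single CpGs were judged only by the authors' FDR below 0.05. Members and lists were chosen with earlier results of these data known. Named sites were the 8 widest differences in each direction among CpGs called on both strands and the 5 widest without a common phi value. Named genes were the 12 with the most isolated CpGs, the 5 widest differences in each direction with at least 50, and 3 lists; examples from the lists were chosen after their values were seen, and a few that met these rules are left unreported here. The merging and selection were tested on simulated data. Alternatives changed the 500 bp radius, the FDR, strands, phi values, chromosomes, gene spans and means. Python 3.11.15, numpy 2.4.6, pandas 2.3.3 and matplotlib 3.10.9 were used.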

Additional observations from a re-analysis of the deposited data

How the results depend on the processing

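No paired analysis was possible because the deposited table holds group levels and no value per animal, and for the same reason no mouse could be left out. Leaving out 7 alternatives that left the value as it was (no level is exactly 0 or 1, for example), 67 were tried over 8 results, of which 50 stayed within the spread over chromosomes or within 1.5 times a count, 17 moved and 0 reversed. The radius sets the number of members, 516619 at 250 bp and 27635 at 1000 bp, and the share called on at least 1 strand was 6.99% and 6.17% against 6.62% in the report. With a radius of 250 bp, 36107 isolated CpGs were called on at least 1 strand and 267 on both, and isolated minus other levels were -0.445 points. With 1000 bp these were 1706, 14 and -6.15 points, and the gap between inside and outside genes, 6.17 points in the report, was 4.59 points. An FDR of 0.01 left 30 calls on both strands. Leaving out CpGs with the most common phi left 785 on at least 1 strand, or 0.837% of the 93839 that remained. The shares over all CpGs at these 2 settings were not computed. Medians in place of means gave 8.32 points inside against outside genes, -8.65 points for isolated against other levels (-2.69 with means) and 0.31 points for the age difference of isolated minus other CpGs (0.129 with means). For phi, old minus young was -0.000497 with both strands listed, -0.000754 without the most common phi and -0.000889 with 1 strand, a choice added after seeing the data, which also gave 7 calls and -7.26 points for isolated against other levels. Isolated against other levels narrowed to -1.49 points with both strands listed and to -1.27 points without the most common phi. Both strands were listed at 57.7% of isolated and 83.5% of the other CpGs. The age difference of isolated CpGs stayed between 0.53 and 0.675 points. Against CpGs over 250 and up to 500 bp from the next, it was larger by only 0.0498 points. The cause of these moves was not tested. With no replicate values and no depth, age differences of single CpGs cannot be set against the spread between animals.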

Other observations

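Odorant and vomeronasal receptor genes, which lie in large clusters and act in the nose, drew isolated CpGs with low levels. Within 10000 bp of 1456 such genes lay 2.40% of isolated CpGs, 3745 in all, and 0.585% of the other CpGs. The isolated ones averaged 53.7% in old and 52.9% in young cells, and the other CpGs there 67.2% in old and 66.6% in young cells. The authors' deposited table called 5.95% of the isolated ones on at least 1 strand, where it called 6.62% of all isolated CpGs, 0.766% of the other CpGs near these genes and 0.421% of all CpGs. Windows of 1 Mb were also ranked by their isolated CpGs. The window from 99000001 on chromosome 1, which overlaps the neurexin-like gene Cntnap5b, held 183 isolated CpGs at 53.0% in old and 53.5% in young cells, and the window from 194000001, with the semaphorin receptor gene Plxna2 and Cd34, held 182 at 68.4% in old and 67.7% in young cells. Of 1937 windows with at least 20 isolated CpGs, 1265 had the higher mean in old cells.

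On the X chromosome, left out of the values above, 15227 CpGs met the same rule and averaged 63.1% in old and 62.4% in young cells. Of 1005 miRNA hairpins in RefSeq, only that of Mir350 held an isolated CpG, at 84.6% in old and 94.3% in young cells, and it was not called in the authors' deposited table.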
